A study of Rattus norvegicus with 6 samples.

Results

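Hox genes encode homeodomain transcription factors that lie side by side in clusters A to D and are numbered along each cluster, and the set of Hox genes a cell transcribes marks its place along the body axis. The neural crest cells that build the lower jaw come from the first pharyngeal arch and transcribe no Hox genes, whereas crest of the second arch carries Hoxa2 and the trunk and limb skeleton carries higher-numbered members. The question was which Hox transcripts are present in cultured cells of the mandibular condyle, the cartilage-covered end of the jaw joint. Members were all genes in the files whose symbol is Hox with a cluster letter and a number, which matched 19 of 17954 genes, and 18 of the 19 are described. RefSeq lists 39 such symbols for the rat (GRCr8 gene table), so 21 are outside the 18 genes described. The 18 comprised 6 genes of cluster A, 2 of cluster B, 5 of cluster C and 5 of cluster D.

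The study sequenced mRNA of rat mandibular condylar chondrocytes, grown flat in DMEM with 20% fetal bovine serum (2D culture, 3 libraries) or as condylar cartilage organoids in a chondrogenic medium (3 libraries). The sources used here do not give strain, sex, age or culture time, and medium and culture format differed together. The labels do not say whether the 3 libraries of a group were independent cultures or animals, so each p-value reflects only how far these libraries vary, a spread that may be technical. Total estimated counts were 18592574 to 26472447 per library. Levels are CPM (counts scaled to library size) after TMM scaling, and with no transcript length in the files they are compared between libraries and not between genes. A count of 0 allows up to 3 counts, which is 0.0917 to 0.0929 CPM in a 2D culture and 0.142 to 0.180 CPM in an organoid, for counting error only. Of the 12 chondrocyte markers, 10 were at 1 CPM or more in every organoid and 5 in every 2D culture, and Col2a1, the main cartilage collagen, stood at 2.91, 4.22 and 4.89 CPM in 2D culture and 78320, 6414 and 21950 CPM in organoids. Acan, the cartilage proteoglycan, stood at 1413 to 1513 CPM in 2D culture and 1717 to 8278 CPM in organoids, and Sox9, the cartilage regulator, at 51.4 to 55.4 and 715.6 to 1420 CPM. Over all genes tested with edgeR's quasi-likelihood test, 1944 were higher and 1650 lower in organoids. When libraries were scaled by their totals alone these counts were 1063 and 3529, and the median log2 fold change moved from -0.03 to -0.65.

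The stretch just before the RefSeq start of 3 members is shown to place them in the genome: Hoxa2, the selector gene of the second arch, Hoxd1, the first-numbered gene of cluster D, with no count, and Hoxd8, with the most counts of the 18 genes. Each is the 250 bases before the start in RefSeq GRCr8, read 5′ to 3′ on the strand of the gene, with CpG dinucleotides in capitals.
Hoxa2 at chr4:82595693-82595942, minus strand: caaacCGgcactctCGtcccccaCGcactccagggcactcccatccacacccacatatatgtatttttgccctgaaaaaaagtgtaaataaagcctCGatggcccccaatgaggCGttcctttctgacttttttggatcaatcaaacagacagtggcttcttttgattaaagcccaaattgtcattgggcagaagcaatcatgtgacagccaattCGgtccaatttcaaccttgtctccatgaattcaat
Hoxd1 at chr3:80072791-80073040, plus strand: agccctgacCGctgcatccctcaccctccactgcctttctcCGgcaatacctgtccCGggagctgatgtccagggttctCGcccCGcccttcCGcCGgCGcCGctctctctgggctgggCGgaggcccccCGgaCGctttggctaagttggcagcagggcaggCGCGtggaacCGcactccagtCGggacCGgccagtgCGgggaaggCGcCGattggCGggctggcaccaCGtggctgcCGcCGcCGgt
Hoxd8 at chr3:80014973-80015222, plus strand: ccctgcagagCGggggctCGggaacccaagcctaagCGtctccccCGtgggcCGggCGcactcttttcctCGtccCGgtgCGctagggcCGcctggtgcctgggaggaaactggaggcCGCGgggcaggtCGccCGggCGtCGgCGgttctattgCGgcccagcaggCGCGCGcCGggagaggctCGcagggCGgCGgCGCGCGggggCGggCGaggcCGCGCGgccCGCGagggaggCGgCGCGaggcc

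The printed stretches hold 6, 25 and 38 CpGs for Hoxa2, Hoxd1 and Hoxd8. Over the 300-base window of the RefSeq table, which adds 50 bases after the start, Hoxd8 held 49 CpGs, and 0.866% of 33469 rat promoters held as many. Hoxd1 held 30, a number reached by 10.3% of promoters, and Hoxa2 held 9, reached by 44.3%. In the Hoxa2 window, the letters TGATTNAT (a pattern bound by Hox and Pbx proteins together, searched on both strands, with N for any base) had a match, as in 3.18% of all promoters. Only 11 of the 18 genes (61.1%) had a promoter entry, so a check of base content over the members as a set is void.

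The 18 Hox genes were at or near 0 counts in both kinds of culture. None of them reached 1 CPM in any library, against 74.5% of all genes in the files. All 18 stayed under 10 counts in every library, against 19.7% of all genes. Hoxa4, Hoxc5, Hoxc6, Hoxd1 and Hoxd9 (5 of 18, or 27.8%) had 0 counts in all 6 libraries, against 4.73% of all genes. Over the 3 libraries of a group, 15 of the 18 had at most 3 counts in 2D culture and 15 in organoids, against 15.4% and 20.2% of all genes. In bulk RNA, fewer cells with a transcript and less transcript per cell cannot be told apart. None of the 18 had a fractional count, the form that a read split between similar genes can take, against 18.4% of all genes. With counts this low a fraction had little room to appear, so its absence cannot decide whether reads were split.

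**Figure D1:**
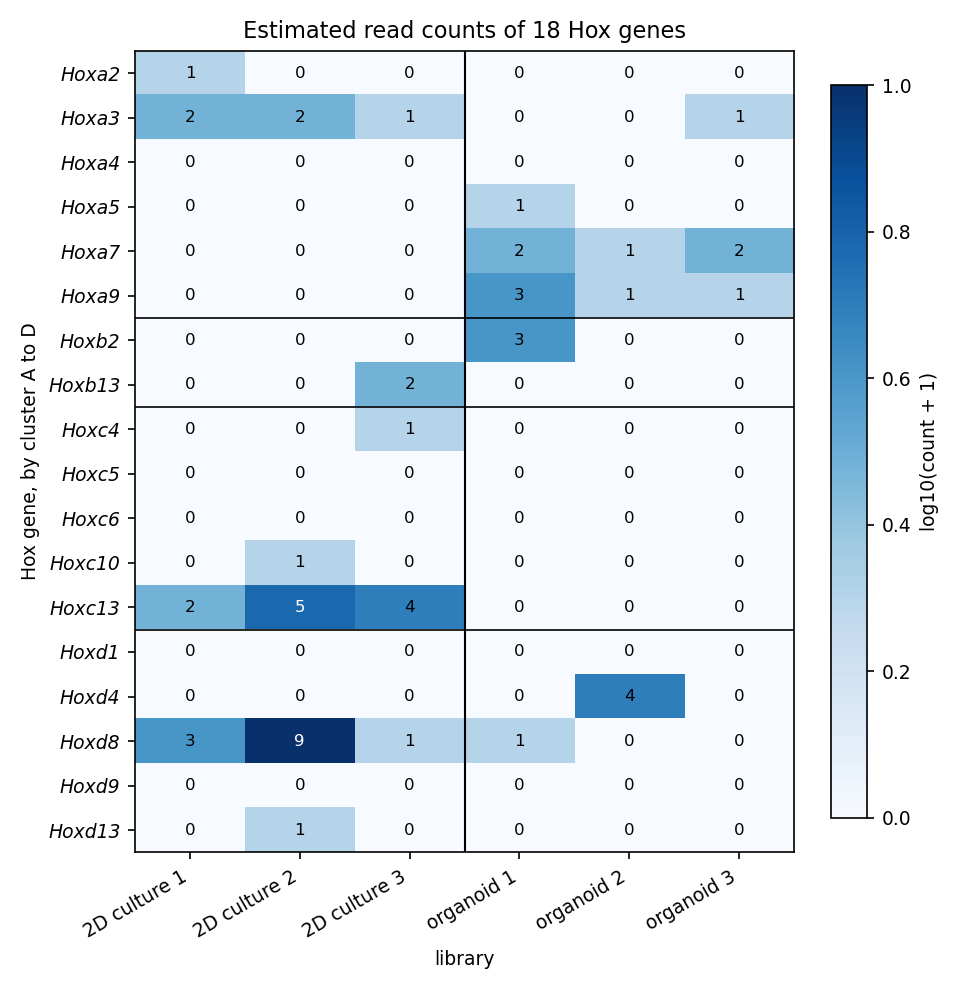
Estimated read counts of 18 Hox genes (rows, by cluster A to D) in the 6 libraries (columns), with colour as log10(count + 1). All cells hold 0 to 9 counts, and the highest is Hoxd8 in 2D culture 2.

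**Figure D2:**
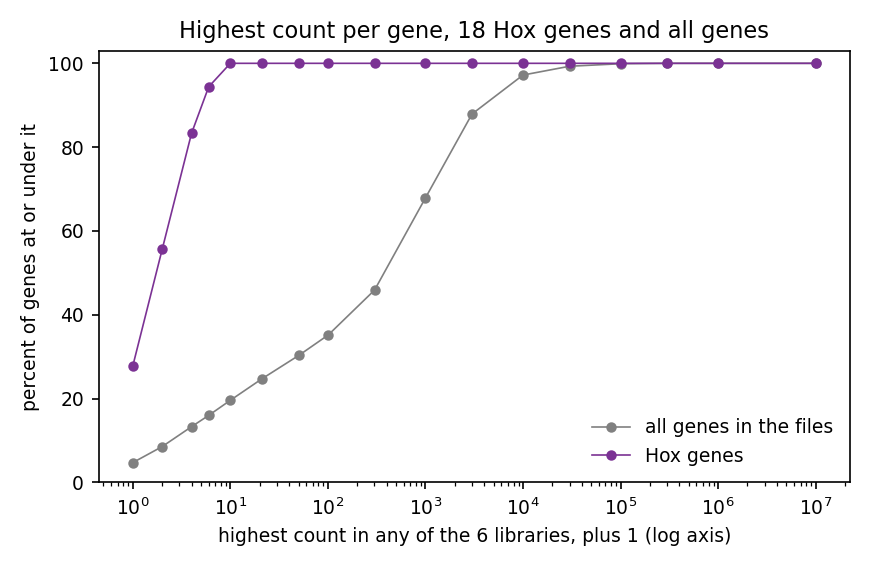
Percent of genes (vertical axis) whose highest count in any of the 6 libraries is at or under the value on the horizontal axis (count plus 1, log axis), read at the marked points. At 9 counts the line of the 18 Hox genes is at 100% and that of all genes at 19.6%.

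The summed counts of the 18 genes were 8, 18 and 9 in 2D cultures 1, 2 and 3, and 10, 6 and 4 in organoids 1, 2 and 3. As levels these sums were 0.245, 0.550 and 0.279 CPM in 2D culture (mean 0.358 ± 0.167, SD, n = 3) and 0.589, 0.361 and 0.189 CPM in organoids (0.380 ± 0.201, SD, n = 3). The groups overlapped, with organoid 1 the highest library and organoid 3 the lowest. Which mean was higher depended on the scaling and on single libraries. Libraries scaled by their totals alone gave 0.447 CPM in 2D culture and 0.293 CPM in organoids. The 2D mean was also the higher one without 2D culture 1 (0.400 against 0.363 CPM), without 2D culture 3 (0.384 against 0.362 CPM) and without organoid 1 (0.387 against 0.299 CPM). The number of the 18 genes with any count was 4, 5 and 5 in 2D cultures and 5, 3 and 3 in organoids.

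**Figure D3:**
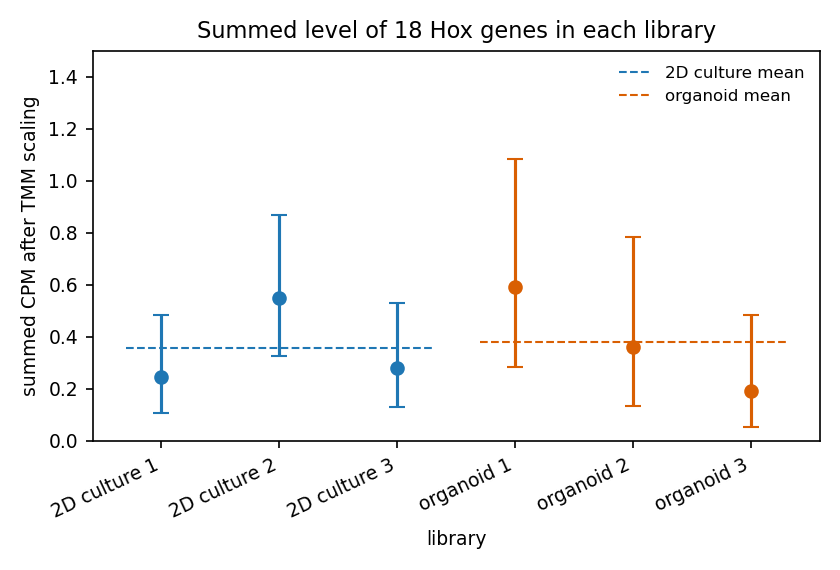
Summed level of 18 Hox genes (CPM after TMM scaling) in each library, with bars for the exact 95% interval of the summed count, which covers counting error only, and dashed lines for the group means. The libraries lie between 0.189 and 0.589 CPM, and the intervals of both groups overlap.

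None of the 18 genes was kept by the low-count filter, so none was tested in the comparison of organoids with 2D culture. That filter kept 72.7% of all genes in the files, and of the 13052 genes tested 27.5% were called in either direction, 14.9% higher and 12.6% lower. Without the filter, 13 of the 18 had a count and were tested, and edgeR called 0 higher and 0 lower. At an unadjusted p under 0.05, 2 were higher (Hoxa7 and Hoxa9) and 1 was lower (Hoxc13) in organoids, with edgeR adjusted p of 0.0993, 0.112 and 0.117. DESeq2 and limma-voom were run behind the filter and so tested none of the 18.

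The anterior members described, numbered 1 to 4, pattern the hindbrain and pharyngeal arches. Hoxa2, whose loss turns second-arch skeleton into a copy of first-arch skeleton, had 1 count in 2D culture 1 and 0 in the 5 other libraries. Hoxa3, which shapes the third arch and its organs, had 2, 2 and 1 counts in 2D culture and 0, 0 and 1 in organoids, a pooled ratio of 2.80 (exact 95% interval 0.314 to 133, for counting error only). Hoxb2, another hindbrain gene, had 3 counts in organoid 1 and 0 elsewhere. Hoxd4, a gene of the neck vertebrae, had 4 counts in organoid 2 and 0 elsewhere. Against 3 counts over the 2D group this is 2.38-fold higher over the organoid group, all from 1 library. Hoxc4 had 1 count in 2D culture 3. Hoxa4 and Hoxd1 had none. Over these 7 anterior genes there were 7 counts in 2D culture and 8 in organoids.

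The middle members, numbered 5 to 8, pattern the neck and thorax. Hoxd8 (gene ID 100912936) had 3, 9 and 1 counts in 2D culture and 1, 0 and 0 in organoids, or 0.0920, 0.275 and 0.0309 CPM against 0.0589 CPM in organoid 1. The groups overlapped in level, and the pooled ratio was 7.29-fold higher in 2D culture with an exact 95% interval of 1.10 to 310, which covers counting error only. Of its 13 counts in 2D culture 9 came from 2D culture 2, and in the fit without the filter it did not pass (edgeR adjusted p = 0.292). Hoxa7, by contrast, had 0 counts in every 2D culture and 2, 1 and 2 counts in organoids 1, 2 and 3. Against 3 counts over the 2D group this is 2.97-fold higher in organoids, with the organoid counts taken as exact. Hoxa5, a gene of lung and neck development, had 1 count in organoid 1, and Hoxc5 and Hoxc6 had none.

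The posterior members, numbered 9 to 13, pattern the lower trunk and the limbs. Hoxc13 (gene ID 315337), best known for hair and nail, had 2, 5 and 4 counts in 2D culture, or 0.0613, 0.153 and 0.124 CPM, and 0 in every organoid. Against 3 counts over the organoid group this is 2.06-fold higher in 2D culture. Hoxa9 had 0 counts in every 2D culture and 3, 1 and 1 in organoids, or 2.97-fold higher there against 3 counts over the 2D group. Hoxb13 had 2 counts in 2D culture 3, Hoxc10 and the digit gene Hoxd13 had 1 each in 2D culture 2, and Hoxd9 had none. Hoxa7, Hoxa9 and Hoxc13 were the 3 of the 18 genes whose groups did not overlap. Of all genes tested 53.5% did not overlap, but these passed the low-count filter, which none of the 18 did. Hoxa7, Hoxa9 and Hoxc13 rest on 5, 5 and 11 counts in all, and were chosen here after their values were seen.

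By cluster, the 18 genes had in 2D culture 6 counts of cluster A, 2 of cluster B, 13 of cluster C and 14 of cluster D. Organoids held 12, 3, 0 and 5 counts of the same clusters. These are raw counts, and the organoid libraries were smaller after TMM scaling. The 5 cluster C members thus had no count in any organoid, which allows up to 3 counts, or 0.0548 CPM, over the group. Single genes made most of these sums. In 2D culture Hoxc13 held 11 of the 13 counts of cluster C, and Hoxd8 held 13 of the 14 counts of cluster D. A count was found in 2D culture but in no organoid for 6 members, in organoids but in no 2D culture for 5, and in both for 2 (Hoxa3 and Hoxd8). These are 33.3%, 27.8% and 11.1% of the 18, against 10.2%, 3.43% and 81.6% of all genes in the files.

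Further Hox sequence stood in the files under gene numbers instead of symbols, outside the rule for members, and was looked up after the members' values were seen. The gene LOC102546856, which RefSeq names Hoxa3l1 and places beside Hoxa3 and Hoxa4, had 8, 19 and 21 counts in 2D culture and 10, 11 and 28 in organoids, more in every library than any of the 18 genes. The groups overlapped, and it did not pass (0.80 ± 0.79, edgeR adjusted p = 0.488). The gene LOC100911668, which RefSeq names Hoxa10, had 9, 1 and 5 counts in 2D culture and 5, 0 and 1 in organoids. Hoxa3l1 reached 1.33 CPM in organoid 3 and stayed under 1 CPM in the 5 other libraries, and Hoxa10 stayed under 1 CPM in all 6.

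Most genes near the Hox clusters had counts well above those of the 18 Hox genes. Of 20 neighbours listed, 17 were in the files, and 14 of these were at 1 CPM or more in every 2D culture and 13 in every organoid. Snx10, a sorting nexin near cluster A, stood at 33.1, 34.9 and 35.6 CPM in 2D culture and 32.3, 17.0 and 32.2 CPM in organoids. Mtx2, a mitochondrial import protein near cluster D, stood at 57.5 to 60.5 CPM in 2D culture and 16.2 to 49.3 CPM in organoids. Both were chosen after their values were seen, and neither passed (edgeR adjusted p = 0.426 and 0.209). Of 14 neighbours tested, 1 rose and 2 fell, against 14.9% and 12.6% of all genes tested. The median log2 fold change of the neighbours was -0.36, against -0.03 over all genes tested, and with total library size 7 neighbours fell. Calcoco1, a coactivator and autophagy receptor near cluster C, rose from 41.8 ± 4.03 to 180.2 ± 17.9 CPM (SD, n = 3 each), and Hnrnpa1, a splicing regulator also near cluster C, fell from 228.7 ± 3.83 to 73.0 ± 20.4 CPM (edgeR adjusted p = 0.000946 and 0.00501). Atp5mc3, a subunit of ATP synthase near cluster D, stood at 54.6, 68.4 and 61.1 CPM in 2D culture and 26.4, 40.9 and 35.7 CPM in organoids (-0.84 ± 0.24, edgeR adjusted p = 0.0421). Atp5mc3 lost its call without each of the 2D cultures, without organoid 3, with replicate number as a block and with limma-voom with a weight for each group. The neighbour Evx1, itself a homeobox gene at the end of cluster A, was at 0 CPM in all organoids and in 2D cultures 2 and 3, with 0.153 CPM in 2D culture 1.

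Transcription factors of the Hox-negative jaw were measured in the same libraries. Of 29 factors listed, 28 were in the files, and 18 reached 1 CPM in every 2D culture and 13 in every organoid, against 0 and 0 of the 18 Hox genes and 63.9% and 57.5% of all genes in the files. Dlx5, which with Dlx6 sets lower-jaw identity, stood at 59.0, 56.5 and 53.9 CPM in 2D culture and 74.1, 95.1 and 122.9 CPM in organoids (log2 fold change 0.79 ± 0.24, edgeR adjusted p = 0.0476). Dlx5 lost its call with total library size, without the low-count filter, without organoid 3 and when any 1 of the 2D cultures was left out. Prrx1, a factor of head and limb mesenchyme, stood at 225.9, 248.2 and 243.6 CPM in 2D culture and 149.0, 181.4 and 154.1 CPM in organoids, and did not pass (edgeR adjusted p = 0.0632). The choice of Dlx5, Dlx6 and Prrx1 was made with their values in view. The early crest factor Tfap2a had 0 counts in all 6 libraries, and Hand2, which marks the distal jaw, had at most 0.120 CPM.

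Among the 20 jaw factors tested, 4 rose and 2 fell in organoids, against 14.9% and 12.6% of all genes tested. With total library size 2 jaw factors were higher and 6 lower. The median log2 fold change of the jaw factors tested was -0.58. Foxc1, a forkhead factor of skull and cartilage, stood at 0.368, 0.611 and 1.05 CPM in 2D culture and 12.1, 42.4 and 9.23 CPM in organoids (4.96 ± 0.82, edgeR adjusted p = 0.00726). Dlx3, a factor of tooth and bone, stood at 2.21, 2.87 and 2.38 CPM in 2D culture and 29.3, 76.8 and 46.3 CPM in organoids (4.35 ± 0.43, adjusted p = 0.00126). Msx1, a crest factor that keeps cells undifferentiated, fell from 24.4 ± 3.53 to 1.12 ± 1.34 CPM (-4.41 ± 1.18, adjusted p = 0.0333). Msx1 lost its call without each of 2D cultures 1, 2 and 3 and without organoid 1. When any 1 of the 2D cultures was left out, 2 jaw factors rose and 0 fell, and without organoid 2, 6 fell.

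Position factors of trunk and limb were listed for contrast. Of 16 in the files, 5 were at 1 CPM or more in every 2D culture and 4 in every organoid. Of the 8 tested 1 rose and 1 fell, against 14.9% and 12.6% of all genes tested. Shox2, which also acts in palate and jaw joint, rose from 23.8 ± 1.07 to 84.2 ± 31.6 CPM (SD, n = 3 each, edgeR adjusted p = 0.00727), a call that was lost without 2D culture 1 or 2D culture 3. The number that fell ran from 0 without any 1 of the 2D cultures to 3 without organoid 1 or organoid 3. Meox2, Pax9, Tbx15 and Tbx18, factors of somites, limbs and skeleton, were with Shox2 the 5 at 1 CPM or more in every 2D culture. Pax9, which also acts in jaw and teeth, stood at 12.1, 11.9 and 13.5 CPM in 2D culture and 8.60, 2.16 and 17.4 CPM in organoids, and Tbx15 at 10.7, 12.2 and 12.1 CPM and 8.60, 4.93 and 23.4 CPM. The limb-field genes Tbx4 and Tbx5 had at most 0.155 and 0.398 CPM, apart from 6.58 CPM of Tbx5 in organoid 3. These 6 genes were named with their values in view.

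**Figure D4:**
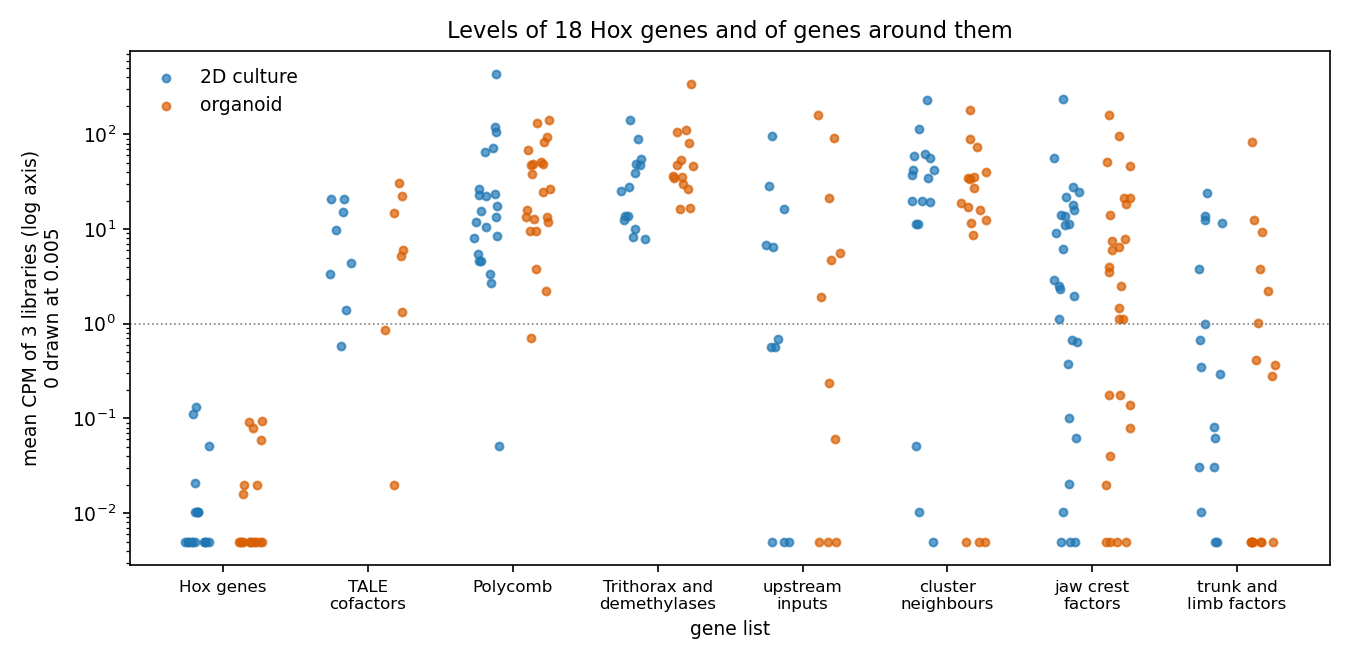
Mean level of each gene over the 3 libraries of a group (CPM on a log axis, not corrected for transcript length, 0 drawn at 0.005) for the Hox genes and 7 lists of genes around them, with 1 CPM as a dotted line. All 18 Hox genes lie under 1 CPM in both groups, and most jaw factors lie above it.

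Hox proteins bind DNA together with TALE homeodomain cofactors of the Pbx, Meis and Pknox families. All 8 listed cofactors were in the files and tested, 6 at 1 CPM or more in every 2D culture and 5 in every organoid. Of these 8, 1 rose and 2 fell in organoids (median log2 fold change -0.37), against 14.9% and 12.6% of all genes tested. Meis3 stood at 4.17, 5.17 and 3.87 CPM in 2D culture and 6.13, 40.6 and 21.0 CPM in organoids (2.36 ± 0.67, edgeR adjusted p = 0.0407). Meis3 was not called with total library size, limma-voom, replicate number as a block, without organoid 2 or organoid 3, or when any 1 of the 2D cultures was left out. Pknox2 fell from 9.74 ± 1.78 to 1.32 ± 0.925 CPM (-2.87 ± 0.66, adjusted p = 0.0206), and lost its call without each of the 2D cultures and with limma-voom with a weight for each group.

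Polycomb proteins keep Hox clusters silent, and Trithorax proteins and the H3K27 demethylases keep them active. Of 22 Polycomb genes, 21 were at 1 CPM or more in every 2D culture and 19 in every organoid. Of 21 tested, 4 rose and 1 fell (median 0.78), against 14.9% and 12.6% of all genes tested. With total library size 1 Polycomb gene rose and 2 fell. When any 1 of the 2D cultures was left out, 0 rose and 0 fell. Jarid2 and Aebp2, accessory subunits of Polycomb complex PRC2, rose from 8.37 ± 1.46 to 49.2 ± 31.2 CPM and from 8.08 ± 1.84 to 47.1 ± 43.6 CPM (edgeR adjusted p = 0.0222 and 0.0309), and Rbbp7, a histone-binding subunit, fell from 433.4 ± 27.2 to 142.6 ± 75.0 CPM (adjusted p = 0.0331). These 3 genes lost their calls without each of the 2D cultures, Jarid2 and Rbbp7 also without organoid 1, and Aebp2 also with total library size. Ezh2, the PRC2 methyltransferase, chosen after its values were seen, stood at 21.7 to 24.3 CPM in 2D culture and 5.16, 13.9 and 28.9 CPM in organoids (adjusted p = 0.515).

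All 14 Trithorax and demethylase genes were at 1 CPM or more in every library. Of these, 8 rose and 1 fell in organoids (median 0.99), against 14.9% and 12.6% of all genes tested. The split turned to 1 higher and 2 lower with total library size. It was 1 higher and 0 lower when any 1 of the 2D cultures was left out. Kdm6b, an H3K27 demethylase, stood at 6.25, 11.0 and 7.52 CPM in 2D culture and 83.0, 176.4 and 71.5 CPM in organoids (3.74 ± 0.45, edgeR adjusted p = 0.00254), and this call held in all 13 alternatives run. Kmt2c, an H3K4 methyltransferase, rose from 28.1 ± 1.98 to 106.1 ± 55.4 CPM (adjusted p = 0.0134), a call lost with total library size and without each of the 2D cultures. Ash2l, a subunit of the same complexes, fell from 142.2 ± 9.07 to 35.0 ± 19.2 CPM (adjusted p = 0.0174) and lost its call without each of the 2D cultures.

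Retinoic acid induces anterior Hox genes through its nuclear receptors. Of 13 genes listed as inputs to the clusters, 11 were in the files and 8 were tested. Of the 8, 2 rose and 0 fell (median 0.06), against 14.9% and 12.6% of all genes tested. With total library size, or when any 1 of the 2D cultures was left out, 1 rose. Rara, a retinoic acid receptor, rose from 28.3 ± 1.59 to 92.5 ± 17.4 CPM (SD, n = 3 each) with a log2 fold change of 1.71 ± 0.22 (SE, edgeR adjusted p = 0.00294). Rarg, another receptor, rose from 96.4 ± 5.70 to 159.7 ± 33.4 CPM (adjusted p = 0.0457). Rarg did not keep its call with total library size, without the low-count filter, with replicate number as a block, without organoid 1 or organoid 3, or when any 1 of the 2D cultures was left out. The enzymes Aldh1a2, which makes retinoic acid in the embryo, and Cyp26a1 and Cyp26c1, which break it down, had 0 counts in all 6 libraries. Other enzymes of both kinds were present. Cyp26b1, which also breaks it down, stood at 14.5, 18.8 and 15.4 CPM in 2D culture and 39.0, 10.6 and 15.1 CPM in organoids. Aldh1a3, which also makes it, stood at 0.650 to 0.764 CPM in 2D culture and 5.66, 0.120 and 0 CPM in organoids. Neither passed (edgeR adjusted p = 0.586 and 0.574).

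Markers of other cell types were set beside the Hox counts, of which organoid 1 held the most among the organoids. The 6 endothelial markers summed to 0.520 to 0.805 CPM in 2D culture and 3.59, 2.40 and 0.0946 CPM in organoids 1, 2 and 3. The 7 macrophage and blood markers summed to 7.15 to 10.2 CPM in 2D culture and 52.9, 40.8 and 19.8 CPM in organoids, with Csf1r, the macrophage growth factor receptor, at 32.5, 16.7 and 0.142 CPM, the haemoglobin gene Hbb at 0.259, 0.885 and 9.13 CPM, and the leukocyte marker Ptprc at 0.142 CPM or less in organoids. The 6 skeletal muscle markers in the files summed to 4.08 to 7.29 CPM in 2D culture and 64.5, 1.67 and 14.1 CPM in organoids, with the muscle actin Acta1 at 47.1, 1.37 and 4.46 CPM, desmin (Des) at 16.4, 0.0601 and 6.39 CPM, and the lineage gene Myod1 at 0 counts in every organoid. The 6 Schwann and neural markers summed to 32.6 to 33.7 CPM in 2D culture and 175, 73.0 and 158 CPM in organoids, where most of it was S100b, which cartilage also transcribes, with Sox10 at 0 in every organoid. The 5 epithelial markers summed to 0.959 to 1.47 CPM in 2D culture and 4.46, 1.32 and 5.42 CPM in organoids. The 12 chondrocyte markers summed to 1500 to 1600 CPM in 2D culture and 99700, 11600 and 30800 CPM in organoids. The 8 osteoblast markers summed to 656 to 721 CPM in 2D culture and 27600, 24500 and 20600 CPM in organoids. The 7 fibroblast markers in the files summed to 1530 to 1550 CPM in 2D culture and 439, 254 and 438 CPM in organoids. Thy1 made most of the 2D sum and went from a mean of 1410 to 228.3 CPM. Of the 6 fibroblast markers tested, 0 rose and 2 fell, with a median log2 fold change of 0.13. The 6 pericyte and smooth muscle markers summed to 510 to 599 CPM in 2D culture and 1310, 403 and 608 CPM in organoids. Most of the organoid sum was Cspg4, at 1266, 397.4 and 584.4 CPM. Of the 5 tested, 1 rose and 3 fell (median -3.23), against 14.9% and 12.6% of all genes tested. Among the organoids, organoid 1 was highest in 8 of these 9 marker sums, chondrocyte markers included and epithelial markers excepted, as well as in Hox counts. That ranking is given for TMM scaling only, whose factor was 0.662 in organoid 1 against 0.896 and 0.877 in organoids 2 and 3. A lower factor raises every CPM of its library, and the fibroblast sums of 439 and 438 CPM were almost level. The part of these markers in the Hox counts was not tested.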

How the data were processed

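Per the submitters' processing notes, HISAT, HISAT2, Bowtie2, RSEM and DESeq2 were used, with no roles, and those sources do not give the genome build, annotation or strand setting. The authors deposited expected counts, which are estimates and can be fractional, for 17954 genes in each of 6 libraries, not normalised, with 1846 to 2501 fractional values per library. These were rounded before testing. Genes were kept by filterByExpr (minimum count 10), scaled by TMM and tested with edgeR's quasi-likelihood method in robust mode, edgeR 4.0.16 (R 4.3.3), with Benjamini-Hochberg adjustment over all 13052 genes tested and a threshold of 0.05. Standard errors were taken as the size of the log2 fold change divided by the root of its F value. Alternatives used limma 3.58.1, DESeq2 1.42.0, other scalings, no filter, a replicate block and leaving out each library. Every pair of replicates differed by more than sampling noise. The chi-square per degree was 8.8 to 18 between 2D cultures and 180 to 391 between organoids, and the main test used a dispersion shared by both groups. The steps were tested on simulated data.

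A fold against a group at 0 counts uses 3 counts over that group and takes the counts of the other group as exact, so it is not the lower end of an interval. The 95% intervals of ratios and counts are exact. Members and lists were chosen with earlier results of these data known, so no list was tested as a set. Of the 19 matching Hox genes 1, and of the lists 3 genes, are not reported here. They stayed in the fit over all genes and are outside every count, sum and median of members and lists, so statements on the 18 Hox genes do not extend to the whole set. Beside the members, the rule for naming genes took for each list up to 3 called genes that reach 1 CPM, by size of change, with the top one of the other direction, and Col2a1, Acan and Sox9. Every other gene named from a list (Snx10, Mtx2, Evx1, Dlx5, Dlx6, Prrx1, Tfap2a, Hand2, Meox2, Pax9, Tbx15, Tbx18, Tbx4, Tbx5, Ezh2, Aldh1a2, Aldh1a3, Cyp26a1, Cyp26b1, Cyp26c1 and the cell type markers) was chosen after its values were seen. A list of 13 non-coding RNAs of the Hox clusters matched 0 genes. Sequences are from RefSeq GRCr8, matched by gene ID. Of the deposited rows, 17720 had an ID in its gene table, which served for names and neighbours.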

Additional observations from a re-analysis of the deposited data

How the results depend on the processing

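With each scaling run, at 0.5 and 5 CPM in place of 1 CPM, and without any single library, 0 of the 18 Hox genes reached the level in every 2D culture or every organoid. Their summed level stayed within 1 SD under every alternative run, at 0.251 to 0.400 CPM in 2D culture and 0.299 to 0.486 CPM in organoids when a library was left out. Sums by cluster and by number class are given as raw counts, with no scaling for library size, and no other scaling was run for them. Hox genes called were 0 in every alternative, which tested none of the 18 unless the low-count filter was left out.

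Over all genes, leaving out a 2D culture gave 703 to 774 higher and 399 to 437 lower. Leaving out an organoid gave 2293 to 2747 higher and 2296 to 2574 lower. Total library size gave 1063 and 3529, and limma-voom 2478 lower. Over the 7 lists with genes in the files, 21 members were higher and 9 lower. Leaving out a library gave 5 to 21 higher and 1 to 17 lower, total library size 7 and 22, and limma-voom 16 lower. The cause was not tested. With the replicate block, 1441 genes were higher and 1289 lower, and 15 and 7 list members. Of the genes named, Meis3, Rarg, Atp5mc3 and Dlx5 did not pass with the block (edgeR adjusted p = 0.0623, 0.0967, 0.0679 and 0.106). Deviations of libraries with the same number correlated by 0.061, 0.187 and 0.021. 2D cultures 1 and 2 correlated best with the organoid of their own number, and 2D culture 3 with organoid 1 (0.07). The labels do not say whether a shared number pairs the samples, and correlations this small over 3 libraries per group cannot decide it.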
